A study of Mus musculus with 8 samples.

Results

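The genes of the MLL1 complex examined here encode the histone methyltransferase MLL1 (Kmt2a), its cofactors menin (Men1) and LEDGF (Psip1), the core subunits Wdr5, Ash2l, Rbbp5 and Dpy30, the host cell factors Hcfc1 and Hcfc2, and the acetyltransferase Kat8. They were chosen by name and not by a rule on measured values, though earlier results of these data were known. They are 10 of 21535 protein-coding genes with a position and a strand. For each gene, every polymerase peak that overlapped its RefSeq GRCm38 interval extended by 3 kb on each side was collected, which gave 187 peaks over 8 libraries.

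MLL1 methylates lysine 4 of histone H3 at active promoters, and its activity depends on the core subunits Wdr5, Rbbp5, Ash2l and Dpy30, which other H3K4 methyltransferases share. Menin and LEDGF tether MLL1 to chromatin, and translocations that join human KMT2A to partner genes cause acute leukaemia. RNA polymerase II carries a repeated C-terminal domain on its subunit Rpb1, which is phosphorylated on serine 5 (Ser5P) around initiation and on serine 2 (Ser2P) as elongation proceeds, so the positions of the marks show which genes are engaged and where along them.

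MEL cells, a mouse erythroleukaemia line, were profiled by CUT&Tag, in which an antibody directs a transposase to cut and tag nearby chromatin. The groups were Ser5P in a line with knockdown of Myrlin (KD), Ser5P in a line labelled dCAS control, Ser2P in the KD line and Ser2P in the control line, with 2 biological replicates in each of the 4 groups. All lines were grown in the same medium, and Myrlin is an enhancer RNA made 81 kb upstream of Myb, for which the series title names recruitment of the MLL1 complex. The labels call the cultures control and CRISPR-edited lines, and do not say whether a line was 1 clone or where the replicates of a line parted. The p-values therefore rest on the spread among these few libraries, and that spread may be no more than technical. In bulk libraries, a narrower peak in every cell and the same peak in fewer cells cannot be told apart.

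The deposited lists held 21574 and 24509 Ser5P peaks in KD cells and 23964 and 25441 in controls, and 32125 and 29372 Ser2P peaks in KD cells against 30286 and 20793 in controls. Relative depth, read as the background pileup of each list, was 1.12 and 1.03 in the Ser2P KD libraries against 0.78 and 0.439 in the Ser2P controls, and peaks had a median width of 478 and 479 bp in KD against 428 and 381 bp in controls. For Ser5P, depth was 0.649 and 0.841 in KD against 0.566 and 0.639 in controls, and median width was 533.5 and 532 bp against 486 and 497 bp. Both KD libraries were therefore deeper and had wider peaks than both controls for each antibody. Of 12 erythroid marker genes, 6 had a promoter Ser5P peak in all 4 libraries, against 0 of 8 lymphoid, 0 of 8 myeloid and 0 of 8 non-haematopoietic markers, while the promoters of Gata1, Alas2, Hbb-b1 and Slc4a1 had no Ser5P peak at the outer gene end. As a check of the labels, the 4 kb window 81 kb upstream of Myb had 275 and 0 bp under Ser5P peaks in KD against 513 and 237 bp in controls, values that overlap. Ser2P there covered 0 and 316 bp in KD against 302 and 0 bp in controls, which overlap too. The Myb promoter had 1081 and 1005 bp of Ser2P in KD against 366 and 215 bp in controls. Its Ser5P covered 339 and 445 bp in KD against 334 and 432 bp in controls. These values do not decide whether the labels are right. The RNA level of Myrlin was not analysed here.

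Each gene was divided into a promoter (1000 bp on each side of the outer 5′ end), a 3′ end (from 1000 bp inside to 3000 bp past the 3′ end) and the body between them. The quantity given is the number of bases in a zone that lie under peaks, and a library was counted as having a peak in a zone where at least 1 bp was covered. Shares over all genes refer to the 18238 genes of at least 3000 bp.

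The 250 bases before an annotated start are shown for 3 members, from RefSeq on GRCm38.p6. At Dpy30 the peaks tell apart a start with a peak from one without, and at Hcfc1 no summit lay inside the stretch. The Hcfc1 stretch was still wholly under peaks in every library but Ser2P control 1, where 196 bp were covered. It lies before a start 638 bp inside the outer 5′ end. The stretches of Rbbp5 and Hcfc2, not printed, held no summit either. Kmt2a, the gene of MLL1 itself, is shown as well. The RefSeq table matched 8 of the 10 members, and Psip1 and Ash2l were not among them. Capitals mark matches on either strand to the GC box GGGCGG, the CCAAT box, the ETS core motif CCGGAAG or the YY1 core motif AAGATGG, with bases counted from 1 at the 5′ end of each printed sequence. The first is Kmt2a, chr9:44881290-44881539, minus strand, then the inner and the outer start of Dpy30, chr17:74316434-74316683 and chr17:74323945-74324194, minus strand, and last Hcfc1, chrX:73966358-73966607, minus strand.
Kmt2a: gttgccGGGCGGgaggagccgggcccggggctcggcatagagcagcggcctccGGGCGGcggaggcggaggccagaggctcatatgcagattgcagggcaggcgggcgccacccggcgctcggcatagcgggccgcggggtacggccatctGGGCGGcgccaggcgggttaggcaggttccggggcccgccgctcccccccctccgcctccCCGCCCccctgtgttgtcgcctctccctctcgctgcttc
Dpy30 inner start: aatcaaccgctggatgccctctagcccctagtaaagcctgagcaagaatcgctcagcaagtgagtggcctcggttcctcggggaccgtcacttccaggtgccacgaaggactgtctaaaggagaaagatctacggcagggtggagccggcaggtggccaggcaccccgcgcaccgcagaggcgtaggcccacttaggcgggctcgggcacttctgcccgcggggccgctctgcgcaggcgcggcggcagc
Dpy30 outer start: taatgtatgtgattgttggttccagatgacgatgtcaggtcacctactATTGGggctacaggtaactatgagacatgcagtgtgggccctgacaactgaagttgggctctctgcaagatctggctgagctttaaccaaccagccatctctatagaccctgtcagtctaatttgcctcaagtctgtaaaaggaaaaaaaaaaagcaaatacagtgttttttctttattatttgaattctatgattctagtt
Hcfc1: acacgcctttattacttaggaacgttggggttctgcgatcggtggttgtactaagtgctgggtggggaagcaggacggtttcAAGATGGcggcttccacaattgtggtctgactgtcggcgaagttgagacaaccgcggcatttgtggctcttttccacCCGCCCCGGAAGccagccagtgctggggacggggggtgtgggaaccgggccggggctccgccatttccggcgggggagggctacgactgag

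The Kmt2a stretch held 76.8% G and C with 29 CpG dinucleotides and 4 GC boxes, and 7 of the 8 libraries had a summit inside it. At Dpy30 the inner stretch had 66.0% G and C and 21 CpGs and lay wholly under a peak in all 8 libraries, whereas the outer one had 40.0% G and C and 1 CpG and no covered base in any library. The Hcfc1 stretch carried the YY1 core at base 83 and an ETS core at base 165 that shares 1 base with the GC box at base 160. GC boxes occurred in 6 of the 8 matched genes and in 32.7% of the 32851 promoter windows of the table. A gene counts here if any of its 1 to 4 windows matches, while the shares are of single windows. Genes with several windows thus match more readily, and the 2 rates are not alike. The CCAAT match occurred in 3 of 8 genes and 33.8% of windows, at Dpy30 only before the outer start. The ETS core was found in 1 of 8 genes and 6.91% of windows and the YY1 core in 3 of 8 genes and 4.49% of windows. Of 3 further motifs searched, the TATA box TATAAA matched none of the 8 genes and 12.4% of windows. The GATA motif AGATAA matched none and 9.99%, and the E-box CACGTG matched Hcfc2 and 6.02% of windows. A match is a run of letters and no evidence of binding. Over all windows the median G and C content was 52.4%.

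Polymerase was present at the promoters of nearly all members. Ser5P marked the promoter of 9 of the 10 genes in all 4 libraries, where 41.8% of all genes were so marked, and Ser2P marked 8 of 10 in all 4, against 40.4% of all genes. The exceptions were Dpy30, with no peak at its outer 5′ end, and Kmt2a, whose Ser2P peak was missing in control 2, the shallowest library. When every annotated start was counted as a promoter, all 10 genes had Ser5P in all 4 libraries and 9 of 10 had Ser2P. No member had a promoter peak in both libraries of one line and neither of the other. Over all genes, such calls were KD-only at 0.461% and control-only at 0.504% for Ser5P, and KD-only at 1.18% and control-only at 0.214% for Ser2P.

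Kmt2a spans 78.0 kb on the minus strand of chromosome 9 (44803355 to 44881352). Its promoter had 780 and 892 bp under Ser5P peaks in KD against 914 and 909 bp in controls, and 959 and 900 bp under Ser2P peaks in KD against 621 and 0 bp in controls. The Ser5P values were lower in both KD libraries and the Ser2P values higher in both, and Ser2P control 2 had no peak anywhere in the Kmt2a window. The Ser5P summit lay 147 bp upstream of the outer 5′ end in KD 2 and both controls and 153 bp upstream in KD 1. A smaller peak further upstream, with summits 1371 to 1809 bp from the 5′ end, was called in Ser5P KD 1 and control 2 and in both Ser2P KD libraries. The noncoding gene Gm39326 (44854919 to 44884837) overlaps the Kmt2a promoter, this upstream stretch and part of the body. No strand was found for Gm39326, so its start was not placed and was not counted as an annotated start.

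Men1 (chromosome 19, 6334979 to 6340894) and Psip1 (chromosome 4, 83455680 to 83486463) encode the chromatin tethers. The Men1 promoter had 953 and 912 bp of Ser2P in KD against 732 and 540 bp in controls, with 1071 and 1173 bp of Ser5P in KD against 1099 and 990 bp in controls. At Psip1, Ser2P covered 1207 and 647 bp in KD against 717 and 526 bp in controls, and Ser5P 803 and 1094 bp in KD against 741 and 813 bp in controls. The groups were apart for Ser2P at Men1 and overlapped in the other cases. Psip1 carried a pair of promoter peaks, one just upstream of the 5′ end and one 548 to 699 bp inside it, except in Ser2P KD 1, where a single peak of 1207 bp spanned both places, and in Ser2P control 2, where the inner one was not called.

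Among the core subunits, Wdr5, a WD40 protein that binds MLL1 directly (chromosome 2, 27515147 to 27536535), had 1293 and 928 bp of promoter Ser2P in KD against 813 and 277 bp in controls. Ash2l (chromosome 8, 25816000 to 25847694) had 455 and 415 bp in KD against 232 and 207 bp in controls. Rbbp5 (chromosome 1, 132477348 to 132505665) had 1048 and 670 bp in KD against 750 and 374 bp in controls. The lines were apart at Wdr5 and Ash2l and overlapped at Rbbp5. The Ash2l summit stood at the same base, 58 bp upstream of the 5′ end, in 7 of the 8 libraries. In Ser5P control 2 a further Ash2l peak had its summit at -763 bp from the 5′ end, near the 5′ end of the potassium channel gene Kcnu1 at -933 bp. The summit of the Rbbp5 promoter peak with the highest fold lay 375 to 652 bp upstream of its 5′ end in the 8 libraries, beyond the start of the divergent noncoding gene 6030442K20Rik at 284 bp upstream. In Ser5P control 2 a second Rbbp5 peak had its summit 229 bp inside the 5′ end. Reads from the 2 starts cannot be told apart.

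Dpy30, a small core subunit (chromosome 17, 74299474 to 74323944, minus strand), differed in layout. No library had a peak within 1000 bp of its outer 5′ end, and every library had 1 peak with a summit 7440 to 7582 bp inside it, where RefSeq places starts at 7511, 7550 and 7733 bp. That peak was 803 and 805 bp wide for Ser5P in KD against 889 and 649 bp in controls, and 807 and 803 bp for Ser2P in KD against 888 and 726 bp in controls. The widths of the lines overlapped for both antibodies. Its fold over local background, as the authors' peak caller gave it, was 9.74 to 13.0, and no other part of the gene had a peak.

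The host cell factors and Kat8 also carried promoter peaks in all 8 libraries. Hcfc1 (chromosome X, 73942792 to 73966995) is a cofactor of H3K4 methyltransferases, and its promoter had 1880 and 1895 bp of Ser2P in KD against 1373 and 1412 bp in controls. Its Ser2P was a single block in both KD libraries and was split into 2 peaks in both controls. Hcfc2 (chromosome 10, 82699007 to 82795865) had 1014 and 1120 bp in KD against 863 and 779 bp in controls. Kat8 (chromosome 7, 127912517 to 127925838), the histone H4 lysine 16 acetyltransferase, had 750 and 609 bp in KD against 450 and 218 bp in controls. At all 3 genes the Ser2P values of KD lay above those of the controls. The Hcfc2 summits lay 328 to 754 bp inside the 5′ end, and a second peak 1508 to 1649 bp upstream was called in all libraries but Ser2P control 2.

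**Figure D1:**
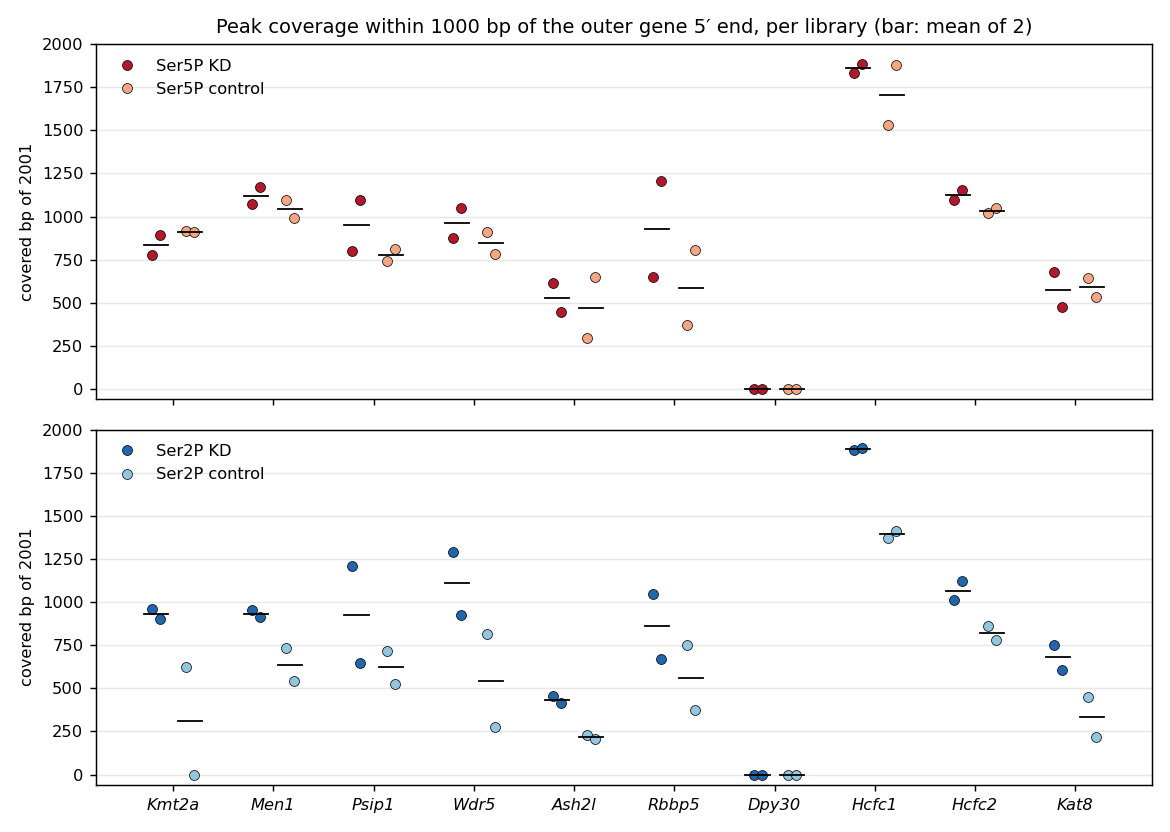
Bases under peaks within 1000 bp of the outer gene 5′ end for the 10 genes (vertical axis, bp), Ser5P above and Ser2P below, with KD left of control; each point is 1 library and each bar the mean of 2. Dpy30 lies at 0 throughout, and the Ser2P points of KD lie above those of the control at 7 genes, Psip1 and Rbbp5 being the other ones with a peak.

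Within gene bodies, coverage came partly from places where a peak recurred in all 8 libraries and partly from peaks called in fewer of them. A body peak was present in all 4 Ser5P libraries at 5 of 10 genes and in all 4 Ser2P libraries at 5 of 10, where 22.0% and 22.6% of all genes had one. For both antibodies the 5 genes included Dpy30, whose peak lay at its inner starts, and Hcfc2, whose constant peak lay at the start of Nfyb. The shares over all genes were not screened for such starts. Men1, Wdr5 and Rbbp5 had no body peak in any library. Across the 75996 bp of Kmt2a body, Ser5P covered 0 and 282 bp in KD and 0 bp in both controls, and Ser2P covered 252 and 0 bp in KD and 0 bp in both controls. Of the 187 peaks, 91 (48.7%) had a summit within 1000 bp of the gene's own start, 71 (38.0%) had no annotated start that near, and the others lay at the start of another gene. The own start was counted first, even where another start was nearer. The 91 thus include the upstream Rbbp5 peaks, nearer to 6030442K20Rik, and the Ash2l peak nearer to Kcnu1.

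Internal peaks recurred at the same position in all 8 libraries at 3 genes without an annotated start there. In Ash2l the summits lay 28194 to 28272 bp from the 5′ end, in a body with 533 and 458 bp of Ser2P in KD against 511 and 579 bp in controls. In Kat8 they lay 9801 to 10071 bp from the 5′ end, where the body had 859 and 503 bp of Ser2P in KD against 409 and 409 bp in controls, an extra peak at 7059 bp adding to KD 1. In Hcfc1 they lay 18142 to 18268 bp from the 5′ end, and the body had 475 and 1183 bp of Ser2P in KD against 398 and 342 bp in controls. KD lay above control at Kat8 and Hcfc1 and overlapped it at Ash2l. The body of Hcfc2 held a constant peak at 64964 to 65145 bp, which is the start of Nfyb, a subunit of the CCAAT-binding factor, on the other strand (65144 bp). Further body peaks were called in fewer libraries, such as those of Hcfc2 at 32528, 47597 and 81469 bp in Ser2P KD 1, of Hcfc1 at 10073, 15400 and 19094 bp in Ser2P KD 2, and of Ash2l at 12064 bp in Ser5P KD 2 and at 21373 bp in Ser2P control 2. Hcfc2 also had peaks in both controls and neither KD library. Their summits lay at 43734 bp in Ser2P control 1 and 43786 bp in Ser2P control 2. For Ser5P they lay at 78297 bp in control 1 and 78296 bp in control 2.

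Psip1 was the only member with a body peak in both Ser2P KD libraries and neither Ser2P control, a call that 2.31% of all genes received. No member was Ser2P control-only (0.658% of genes), Ser5P KD-only (1.1%) or Ser5P control-only (1.58%) in its body. These calls take the body as a whole, so peaks seen in controls alone, as in Hcfc2, did not count where KD had other body peaks. At Psip1, Ser2P covered 440 and 530 bp of the body in KD against 0 bp in both controls. The shared peak had its summit 21630 and 21631 bp from the 5′ end in the KD libraries. Ser5P had a peak at the same place in both KD libraries and in control 2, with 648 and 364 bp of body coverage in KD against 0 and 923 bp in controls. The Ser2P difference was 1.69 ± 0.366 percentage points of the body (SE, n = 2 each), with an adjusted p of 0.484 by limma. Without KD 2 it was 1.53 points, in a fit where both controls stood at 0 bp and 1 KD library remained. The peaks were weak, with a −log10 q of 6.65 in KD 1 and 4.33 in KD 2, and the call was lost when only peaks with a −log10 q of at least 5 were used.

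**Figure D2:**
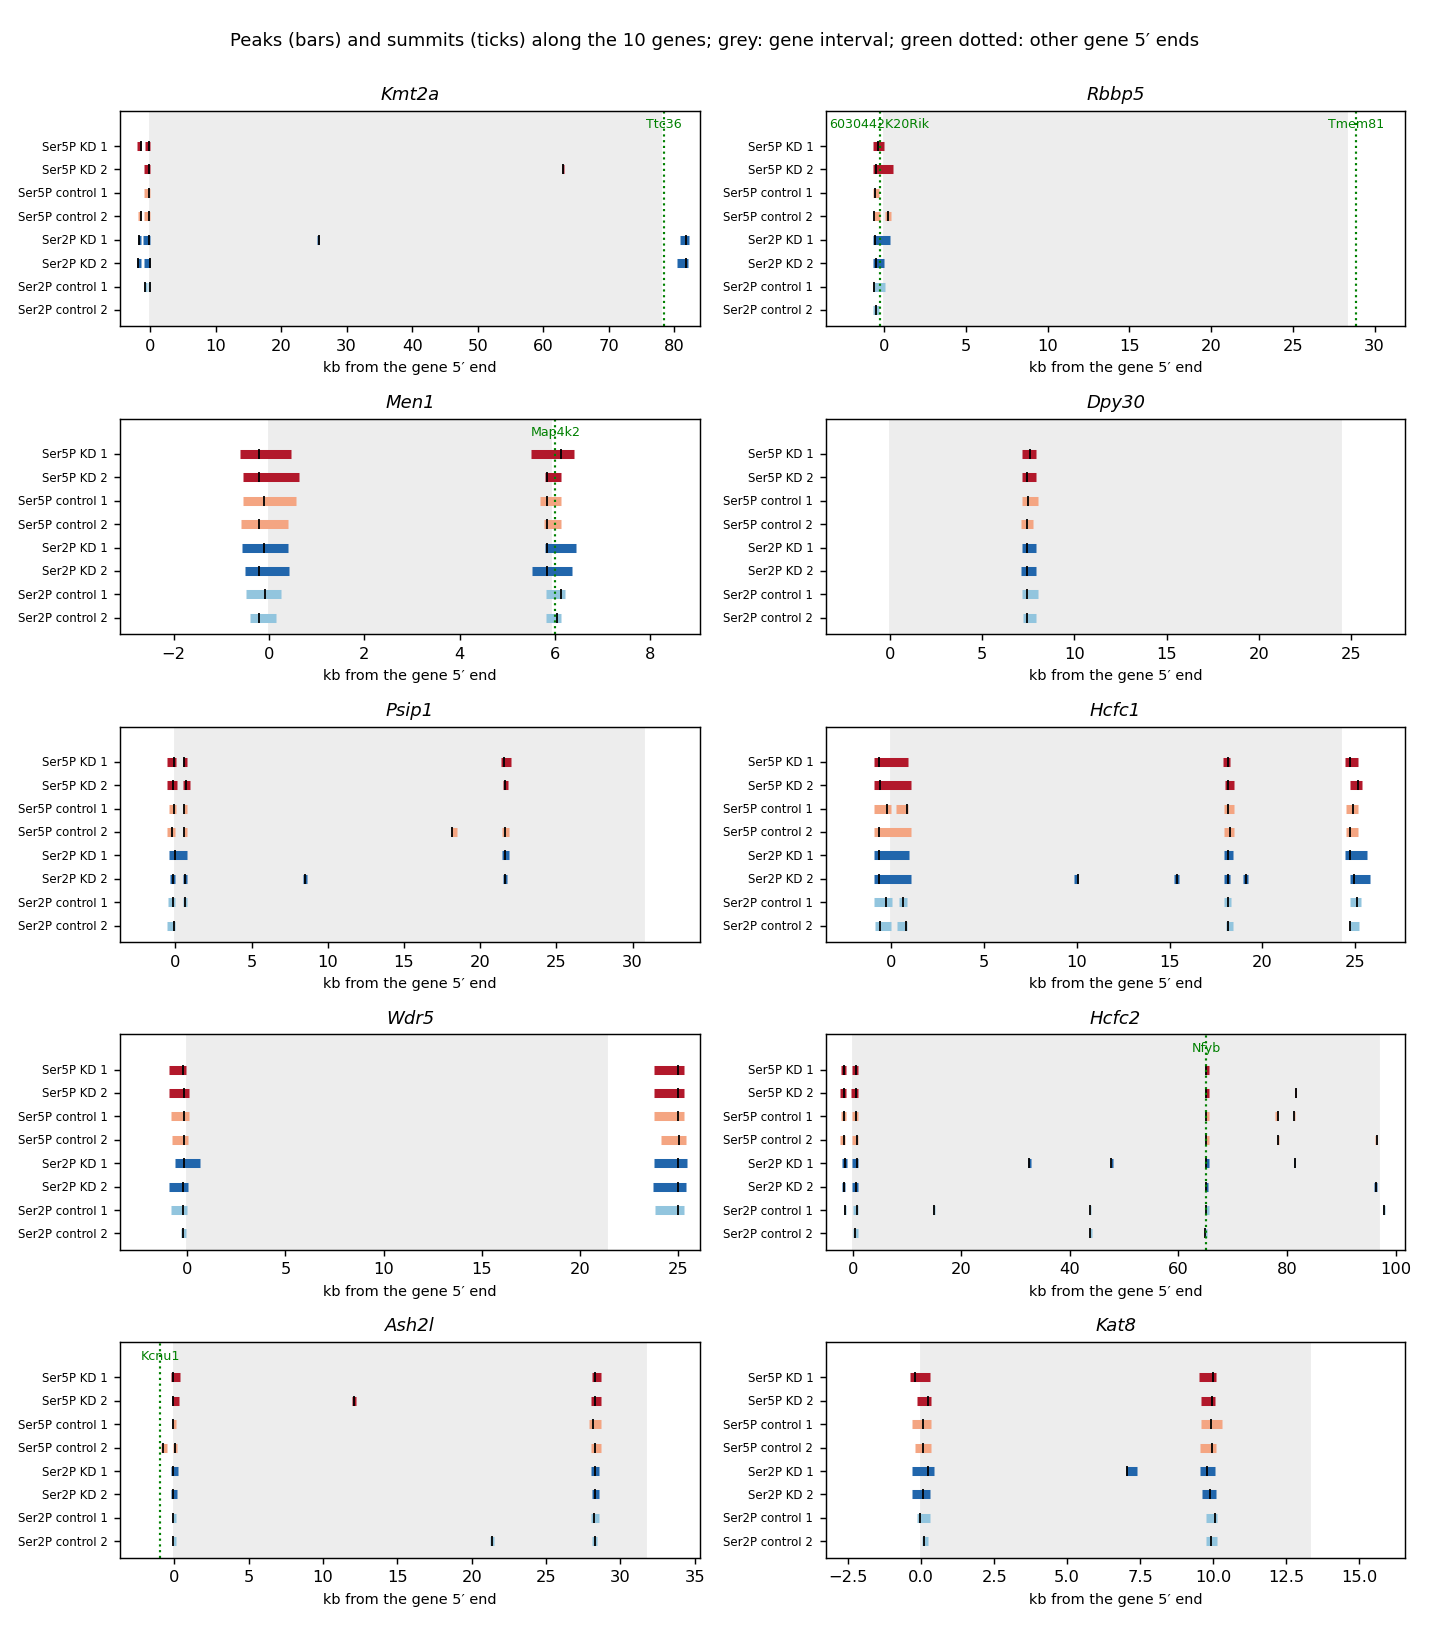
Peaks (bars) and summits (ticks) in each library along the 10 genes, by distance from the gene 5′ end in kb, with KD rows above control rows for each antibody, the gene interval in grey and 5′ ends of other genes as green dotted lines. Internal peaks recur in all 8 libraries at a single place each in Ash2l, Kat8, Hcfc1 and Dpy30, and at Nfyb inside Hcfc2. The Dpy30 peak lies 7440 to 7582 bp inside its outer end. Further internal peaks, in Ash2l, Kat8, Hcfc1, Hcfc2, Psip1 and Kmt2a, stand in fewer libraries.

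At 3′ ends, a Ser5P peak was found in all 4 libraries at 3 of 10 genes and a Ser2P peak at 2 of 10, against 9.66% and 10.3% of all genes. At Men1 these peaks had summits 5827 to 6123 bp from the 5′ end, beside the start of Map4k2, a kinase gene that begins 96 bp past the Men1 3′ end. Ser2P there covered 657 and 833 bp in KD against 388 and 302 bp in controls, and Ser5P 898 and 343 bp in KD against 441 and 363 bp in controls. The Hcfc1 3′ end had 1172 and 1089 bp of Ser2P in KD against 625 and 508 bp in controls, with no annotated start within 1000 bp of the summits, and 698 and 653 bp of Ser5P in KD against 651 and 607 bp in controls. KD lay above control for both antibodies at Hcfc1 and for Ser2P alone at Men1. Psip1, Ash2l, Rbbp5, Dpy30 and Kat8 had no 3′ end peak in any library. No peak covered the 5′ end of Ttc36, 404 bp past the Kmt2a 3′ end, or of Tmem81, 565 bp past the Rbbp5 3′ end.

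Kmt2a was the only member with 3′ end Ser2P in both KD libraries and neither control, a pattern seen at 1.79% of all genes. No member showed the reverse for Ser2P (0.285% of genes), or 3′ end Ser5P in KD alone (0.592%) or in controls alone (0.62%). The covered bases were 95 and 575 bp in KD against 0 bp in both controls, a difference of 8.37 ± 4.93 percentage points of the zone (SE, n = 2 each) with an adjusted p of 0.566 by limma. The difference was 14.37 points without KD 1 and 2.37 points without KD 2, fits in which both controls stood at 0 bp and 1 KD library remained. These bases were the edge of a peak present in all 8 libraries, whose summit lay 3794 to 3976 bp past the Kmt2a 3′ end, outside the zone and next to the 5′ end of Tmem25 at 3831 bp. That peak was 1312 and 1739 bp wide for Ser2P in KD against 965 and 868 bp in controls, and 1004 and 1109 bp for Ser5P in KD against 728 and 1053 bp in controls. No library had a summit inside the Kmt2a 3′ end zone. Counting only peaks with their summit in the zone, asking for 200 bp of coverage, or ending the zone 1000 bp past the gene each removed the call. By summits, 0 members and 1.58% of all genes were KD-only there.

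**Figure D3:**
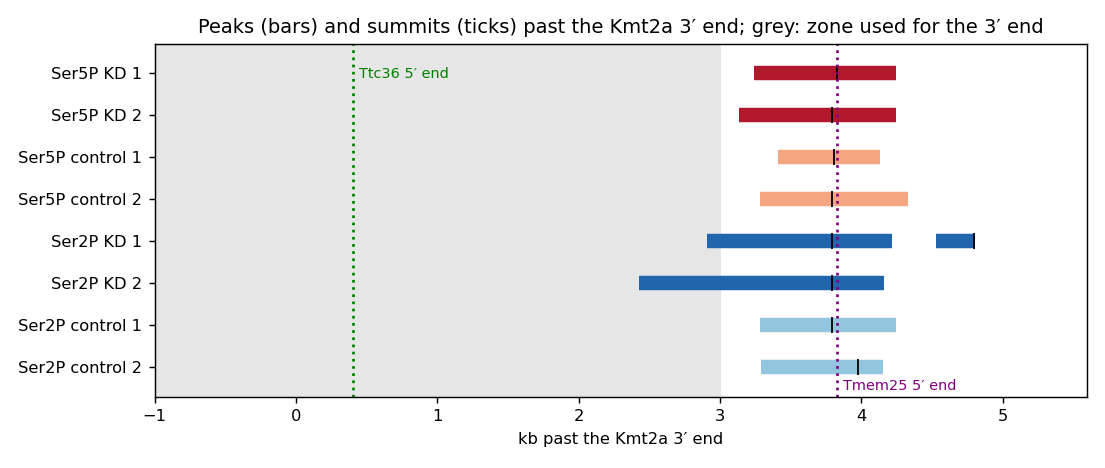
Peaks (bars) and summits (ticks) past the Kmt2a 3′ end in each library, by distance in kb, with KD rows above control rows for each antibody and the 3′ end zone in grey. The peak at the Tmem25 5′ end (3831 bp) stands in all 8 libraries, and in both Ser2P KD libraries its edge reaches 95 and 575 bp into the zone.

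Wdr5 showed the same layout at its 3′ end. Its zone had 587 and 645 bp of Ser2P in KD against 558 and 0 bp in controls, and 579 and 587 bp of Ser5P in KD against 587 and 246 bp in controls. The bases came from a peak with its summit 3616 to 3684 bp past the 3′ end, at the start of the noncoding gene Gm13421. That peak was present in all 8 libraries, and in Ser2P control 2 it was 866 bp wide and did not reach the zone.

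The comparison of the lines asks whether polymerase at the genes of the complex differed with less Myrlin. For Ser2P at promoters, both KD libraries were above both controls at 7 of the 9 members with a peak (Kmt2a, Men1, Wdr5, Ash2l, Hcfc1, Hcfc2 and Kat8), and at 46.3% of the 9420 genes with such a peak. None was lower in both KD libraries, against 2.18% of genes. Summed over the 10 genes, promoter Ser2P covered 9559 and 8096 bp in KD against 6551 and 4333 bp in controls. For bodies the count was 3 of 7 members (Psip1, Hcfc1 and Kat8) against 30.9% of genes, and 5 of 7 against 53.7% without KD 2. For 3′ ends it was 4 of 5 (Kmt2a, Men1, Wdr5 and Hcfc1) against 28.8%. At Kmt2a, Men1 and Wdr5 the 3′ end bases came from peaks at the starts of Tmem25, Map4k2 and Gm13421. No member was lower in both KD libraries in either zone, against 4.05% of genes for bodies and 2.6% for 3′ ends. The lists with higher coverage were those with greater depth and wider peaks. In lists thinned to equal depth, which drops peaks without narrowing them, 7 of 9 promoters were again higher, against 42.8% of genes, and 1 of 9 was lower in both KD libraries (Rbbp5, a difference of -28.09 percentage points), against 3.43%. At 3′ ends 3 of 4 members were higher in the thinned lists (Kmt2a, Men1 and Wdr5), against 22.9% of genes, and 1 of 4 was lower (Hcfc1), against 4.96%. The part that peak width had in these counts was not tested.

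For promoter Ser5P both KD libraries were higher at 1 of 9 members (Hcfc2, 1096 and 1155 bp in KD against 1021 and 1049 bp in controls), where 25.7% of genes were, and lower at 1 (Kmt2a), where 10.9% were. In bodies 0 of 7 members were higher, against 13.4% of genes, and 0 of 7 lower, against 16.4%. At 3′ ends 1 of 4 was higher (Hcfc1), against 15.5% of genes, and 0 of 4 lower, against 10.1%. The count of higher promoters was 6 without Ser5P KD 1 (48.3% of genes) and 2 without KD 2 (37.6%). It was 3 without control 1 (37.5%) and 5 without control 2 (43.0%). That of lower promoters was 2 without KD 1 (19.0% of genes) or control 1 (27.4%). Summed promoter Ser5P covered 8399 and 9373 bp in KD against 7526 and 8408 bp in controls, which overlap.

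No member passed the test of either antibody in any zone. By limma on the covered share of each zone, with adjustment over all genes of the zone, 0 of 9420 genes (0.0%) were called for promoter Ser2P and 0 of 9184 (0.0%) for promoter Ser5P. At an unadjusted p under 0.05 the numbers were 1359 higher and 39 lower in KD for Ser2P and 627 higher and 192 lower for Ser5P. The same held for bodies, with 0 of 8590 genes for Ser2P and 0 of 8010 for Ser5P, and for 3′ ends, with 0 of 5183 for Ser2P and 0 of 4026 for Ser5P, each 0.0%. The unadjusted numbers for Ser2P were 586 higher and 92 lower in bodies and 496 higher and 29 lower at 3′ ends. For Ser5P they were 243 and 305 in bodies and 175 and 116 at 3′ ends.

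The differences of the members lay on the side of all genes. The median difference in promoter Ser2P over all genes was 7.30 percentage points, KD minus control, and 86.05% of genes were positive, as were all 9 members with a peak. Kmt2a differed by 30.93 ± 11.56 points (adjusted p = 0.344), Hcfc1 by 24.74 ± 5.18 points (adjusted p = 0.253) and Wdr5 by 28.26 ± 11.86 points (adjusted p = 0.385), each as SE with n = 2 libraries per line and by limma. The other 6 lay between 10.77 points at Ash2l and 17.27 points at Kat8, with adjusted p from 0.317 to 0.559. Single libraries moved several of these values. Psip1 differed by 1.27 points without Ser2P KD 1 and 29.26 points without KD 2. Rbbp5 differed by 5.40 points without KD 1 and 5.45 points without control 2, and by 24.29 points without KD 2 and 24.24 points without control 1. Wdr5 gave 14.87 points without control 2 and 41.65 points without control 1, and Kat8 11.47 points without control 2. The sign at these 4 genes stayed positive with each library left out in turn. At 3′ ends the difference was 14.1 ± 2.58 points at Hcfc1 and 10.0 ± 2.93 points at Men1, both with an adjusted p of 0.482 by limma. The Men1 value is that of the peak at the Map4k2 start. In lists thinned to equal depth, the Hcfc1 3′ end difference turned to -14.16 points (adjusted p = 0.603). Kmt2a rests on a library without a peak: its difference was 15.42 points without Ser2P control 2 and 46.45 points without Ser2P control 1.

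**Figure D4:**
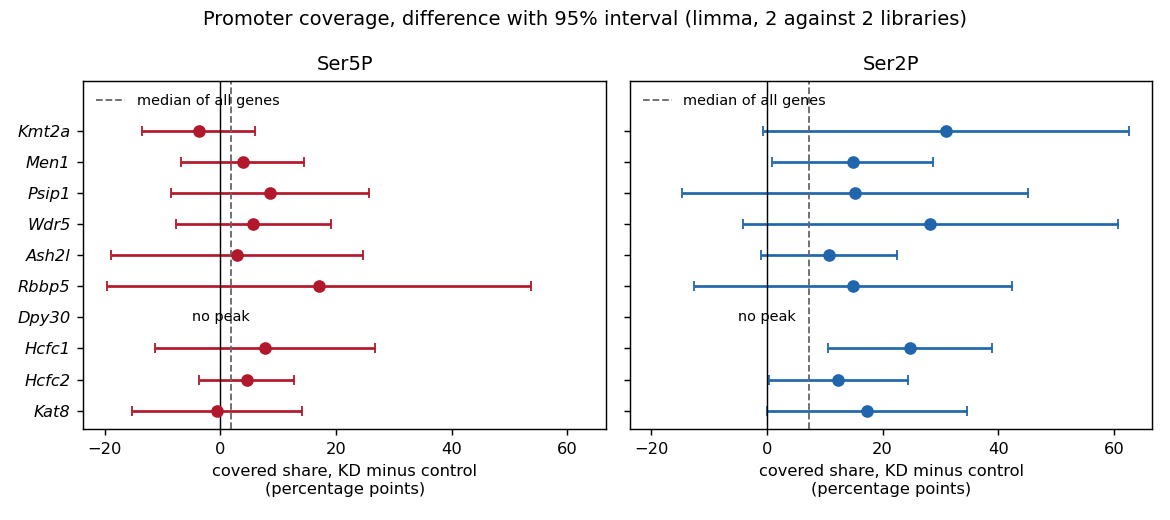
Difference in the covered share of the promoter, KD minus control in percentage points (horizontal axis), for each gene, Ser5P left and Ser2P right; points are estimates, bars 95% intervals from limma with 2 against 2 libraries, and the dashed line is the median of all genes. Ser2P estimates of all 9 genes with a peak are positive, from 10.77 to 30.93 points, while those of Ser5P lie on both sides of 0.

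The difference between the antibodies was tested as well. For promoters the interaction of line and antibody called 0 of 9674 genes (0.0%), with 732 higher and 90 lower at an unadjusted p under 0.05. Kmt2a had a larger KD difference for Ser2P than for Ser5P by 34.71 ± 13.3 points, with an adjusted p of 0.540, against a median of 5.37 points over all genes. In bodies the interaction called 5 genes of 9347 (0.0535%) with no member among them, and at 3′ ends 0 of 5743 (0.0%), with 351 higher and 46 lower at an unadjusted p under 0.05.

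No member passed a test between the antibodies. Ser2P against Ser5P over all 8 libraries called 6 of 9674 promoters (0.062%), 0 of 9347 bodies (0.0%) and 5 of 5743 3′ ends (0.0871%), none of them members. Bodies had 471 higher and 287 lower genes at an unadjusted p under 0.05. Men1 had the lowest p of the members at promoters, with Ser2P 14.94 ± 3.69 percentage points below Ser5P and an adjusted p of 0.203 by limma. The position of the promoter summit could be compared at 8 members, and it was called at 10 of 6700 genes (0.149%) and at none of the members. The Wdr5 summit differed by -35.5 ± 23.7 bp, Ser2P minus Ser5P (95% interval -93.3 to 22.3 bp), and the Ash2l summit by -27 ± 26.2 bp (95% interval -90.8 to 36.8 bp), with adjusted p of 0.760 and 0.818.

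Related genes carried promoter Ser5P at the outer gene end to varying extents. Of 12 genes of other H3K4 methyltransferase complexes, 9 had it in all 4 libraries, and Kmt2d and Kdm6a, a methyltransferase and a demethylase of those complexes, had none. Of 9 partners of Kat8, 8 had it in all 4, the exception being Msl1. Of 11 genes that include MLL fusion partners and Dot1l, 4 had it in all 4. With every annotated start counted as a promoter, the counts were 11 of 12, with no gene lacking it in every library, 9 of 9 and 6 of 11, against 45.1% of all genes. At the outer gene end, no gene of these lists had a promoter peak for Ser5P, or a body or 3′ end peak for Ser2P, in both libraries of one line alone. Mllt1, a fusion partner also known as ENL, had a 3′ end Ser5P peak in both controls and neither KD library, where 0.62% of all genes did.

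The genes whose coverage over 3 zones and 8 libraries was nearest to that of Kmt2a were Krcc1, Bcdin3d and Aipl1. The measure was the Euclidean distance of log2(covered bp + 100) over these 24 values, which was 3.12 for Krcc1, 3.51 for Bcdin3d and 3.58 for Aipl1. Krcc1 shared with Kmt2a a promoter Ser2P value of 0 bp in control 2, beside 1259 and 915 bp in KD and 1037 bp in control 1. At Aipl1 promoter Ser2P was 669 and 684 bp in KD against 648 and 458 bp in controls.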

How the data were processed

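One peak list was deposited per library, 8 in all. MACS2 2.2.7.1 is among the tools in the submitters' processing notes, along with Picard 2.21.4, SAMtools 1.9, Bowtie2 2.3.5, deepTools 3.3.1 and cutadapt 2.7, and the build is GRCm38 (mm10). Peak-calling settings were not given in the sources used here. The authors deposited for each peak a display score, a fold enrichment at the summit as a ratio, a −log10 p-value, a −log10 q-value and the summit offset. Read totals are unknown, and relative depth is the most frequent background pileup, solved from the deposited fold and −log10 p with a tolerance of 0.001. Only peaks on the autosomes, X and Y entered, leaving out 24 to 30 in each list.

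Gene intervals came from RefSeq GRCm38.p6. Strand came from the RefSeq promoter table (17492 genes) or from GENCODE vM1 by symbol (3649, among them Psip1 and Ash2l) or synonym (394), and the other 352 genes were left out. The genome supplied beside these tables is of another build and was not used. Covered shares were tested with limma 3.58.1 in R 4.3.3, with a mean trend and Benjamini-Hochberg adjustment over all genes with a peak in the zone, at an adjusted p of 0.05. The 2 lines were compared within each antibody, and the antibodies with line as a covariate. The scripts were tested on simulated data. With 2 libraries against 2, an exact permutation test has 6 arrangements and cannot give a two-sided p under 0.333, so none was used.

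All members, every gene of known strand that starts within 3 kb of a member, the 3 genes nearest to Kmt2a and list genes called in one line alone are named. The members and lists were chosen with earlier results of these data known. The count of genes whose lines do not overlap, the rule on summits and the rule on every annotated start were chosen after seeing the data. Other settings tried were a stricter −log10 q (5 or more), equal list lengths (20793 peaks), thinning to the shallowest library of an antibody, other zones, a 200 bp minimum, an arcsine scale, a replicate block and leaving out each library. Within each antibody, deviations of libraries with the same replicate number correlated at -0.011 to 0.11 over genes, which shows no pairing there. Whether Ser5P and Ser2P libraries of the same line and number came from the same culture was not tested, and the fits over 8 libraries took them as separate.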

Additional observations from a re-analysis of the deposited data

Results flagged for a closer look

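At the Kmt2a promoter the 2 antibodies moved in opposite ways in every library. Mean Ser2P coverage was 929.5 ± 41.7 bp in KD and 310.5 ± 439.1 bp in controls (SD, n = 2 each), a difference of 619.0 bp, while mean Ser5P coverage was 836 ± 79.2 bp in KD and 911.5 ± 3.5 bp in controls, a difference of -75.5 bp. The test of the difference between the antibodies gave an adjusted p of 0.540 by limma, and the Ser2P control mean includes a library with no peak in the Kmt2a window. Its relative depth was 0.439, the lowest of the 8 libraries, and the part of depth in this difference was not tested. With all Ser2P lists thinned to that depth, the Ser2P difference was again 30.93 percentage points. Thinning drops whole peaks without narrowing them and cannot restore a peak not called, so this value does not speak to depth.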

How the results depend on the processing

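Of the members with a peak in one line alone, Psip1 lost its body Ser2P call with a −log10 q of at least 5 and with a 500 bp promoter (0 members each, since the wider body then takes in its inner promoter peak in control 1). Kmt2a lost its 3′ end Ser2P call with a zone to 1000 bp past the gene, with 200 bp of coverage and with the summit inside the zone (0 members each). Thinning added 1 control-only member for promoter Ser2P (Rbbp5, where 119 of 18238 genes were called). It added 1 for 3′ end Ser2P (Hcfc1, where 115 of 18238 were). Both differences turned by limma: Rbbp5 to -28.09 percentage points (adjusted p = 0.323) and Hcfc1 to -14.16 points (adjusted p = 0.603). Thinning was 1 random draw and leaves peak widths as deposited. Members with higher promoter Ser5P in both KD libraries numbered 2 with a −log10 q of at least 5 (25.8% of genes) and 3 with a 500 bp promoter (23.3%), in place of 1 (25.7%).

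Genes called between Ser2P and Ser5P numbered, at promoters, 13 with the stricter q, 37 with equal lists, 22 thinned, 29 with a 500 bp promoter and 44 on the arcsine scale. In bodies they numbered 11 with the stricter q, 9 with equal lists, 1 thinned, 2 with a 500 bp promoter and 16 on the arcsine scale, and at 3′ ends 9 with the stricter q, 11 with equal lists, 2 with the shorter zone and 20 on the arcsine scale. The interaction in bodies called 41 genes with the stricter q, 45 with equal lists, 11 thinned, 1 with a 500 bp promoter and 19 on the arcsine scale. The cause of these changes was not tested. With the replicate number as a block, the interaction in bodies called 0 genes and the summit test 2 genes. Within an antibody the numbers showed no pairing of the libraries, so the block is not read as a paired analysis. No member gained or lost a call under this block.

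Leaving out each library in turn, with the lone library of a line assumed to vary like the others, moved many of the counts. Genes called for Ser2P in KD against control ranged from 0 to 415 at promoters, 0 to 880 in bodies and 0 to 949 at 3′ ends, each highest without Ser2P KD 2, and with 752 at 3′ ends without Ser2P KD 1 and 2 in bodies without Ser2P control 1. For Ser5P at 3′ ends they ranged from 0 to 482, with 482 without Ser5P KD 1 and 469 without control 1. Interaction counts ranged from 0 to 215 at promoters, 65 to 525 in bodies and 0 to 677 at 3′ ends, each highest without Ser2P KD 2. Counts between antibodies ranged from 1 to 12 at promoters, 0 to 2 in bodies and 1 to 39 at 3′ ends, and those of the summit test from 3 to 21. Among these calls, members were Kmt2a at the 3′ end for Ser2P without KD 1 or KD 2 and Psip1 in the body for Ser2P without KD 2. Hcfc2 was called at the 3′ end for Ser5P without control 1 (-8.40 points). In each of these fits 1 line kept 1 library and both libraries of the other line were at 0 bp. The gene itself then shows no spread, so these calls do not rest on its replicates. The interaction called Kmt2a at the 3′ end without Ser2P KD 1 or KD 2 and Hcfc1 there without KD 2 (13.97 points).

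Members in one line alone ranged from 0 to 1 for promoter Ser2P KD-only (Kmt2a without control 1, where 920 of 18238 genes were called). For body Ser5P KD-only they ranged from 0 to 1 (Kmt2a without KD 1, 694 genes, and Psip1 without control 2, 487 genes). For body Ser2P KD-only the range was 1 to 2 (984 genes without KD 2). It was 0 to 1 for 3′ end Ser5P control-only (Hcfc2 without control 1, 481 genes). For 3′ end Ser2P KD-only it was 1 to 2 (Wdr5 added without control 1, 910 genes). Members whose lines did not overlap ranged from 2 to 6 for higher promoter Ser5P in KD (37.5% to 48.3% of genes) and 1 to 2 for lower (19.0% to 27.4%). For higher Ser2P in KD they ranged from 7 to 9 at promoters (49.6% to 76.2% of genes). The range was 3 to 5 in bodies (33.0% to 56.7%) and 4 to 5 at 3′ ends (31.1% to 53.4%). Ser2P control 2 had the lowest relative depth, 0.439, so a peak not called there is not shown to be absent.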
